A study of Mus musculus with 2 samples.

Results

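Structural microtubule-associated proteins (MAPs) bind along the microtubule wall, and 8 of the 43346 genes listed per library encode those described here. They are Mapt, Map2, Map4, Map1a, Map1b, Map6, Dcx and Dclk1, taken by symbol, with their 59 listed transcripts. RNA was measured in whole forebrain of newborn mice (postnatal day 0, strain B6NCrl), with no treatment or engineered allele named in the labels. There were 2 libraries in 1 group, 1 from the forebrain of pup 1 and 1 from that of pup 3, to which the labels give the same donor identifier. Each library was made by a Smart-seq protocol from 13 pg of RNA longer than 200 nt, called 1 cell-equivalent, so it samples all forebrain cells and not 1 cell. With 1 library a pup, no difference was tested and the spread between the libraries may be technical.

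Neurons use MAPs to stabilise, space and bundle the microtubules of axons and dendrites. Tau (Mapt), MAP2 and MAP4 form 1 family, with a C-terminal row of microtubule-binding repeats, while MAP1A and MAP1B are large proteins of another family and MAP6 keeps microtubules stable in the cold. Doublecortin (Dcx) and the related kinase Dclk1 bind through doublecortin domains and mark migrating and young neurons. Several of these genes switch between a juvenile and an adult splice form as the brain matures, most of all Mapt and Map2.

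The family relation of Map2 and Map4 can be read in 1 exon of 93 bases, which encodes a microtubule-binding repeat. It is a coding exon in both genes, and the common forms of MAP2 lack it. The sequences below are read 5′ to 3′ on the coding strand (the plus strand for both) from GENCODE M21 transcripts on GRCm38 (mm10), at chr1:66431527-66431619 for Map2 and chr9:110072613-110072705 for Map4. Capitals mark the 59 bases (63.4%) that are identical in both.
Map2: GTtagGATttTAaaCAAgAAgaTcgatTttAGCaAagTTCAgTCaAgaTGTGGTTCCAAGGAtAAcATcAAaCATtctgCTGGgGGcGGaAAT
Map4: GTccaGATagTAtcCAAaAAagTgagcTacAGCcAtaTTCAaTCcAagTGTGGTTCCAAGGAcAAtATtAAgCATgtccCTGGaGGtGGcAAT
Near its end the Map4 exon holds a run of codons for proline and 3 glycines, which closes the repeats of this family. That run, CCNGGNGGNGGN, was searched in frame on the coding strand. It occurred 4 times in each complete coding sequence of Mapt, 3 times in the Map4 forms that hold the repeats and 2 times in the low and high molecular weight forms of Map2. It did not occur in the complete coding sequences of Map1a, Map1b, Map6, Dcx and Dclk1. Among the longest coding sequences of 21489 protein-coding genes, 475 (2.21%) held it at least 1 time and 11 (0.0512%) at least 3 times.

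Further sequences mark the splice forms that are measured below. Adult tau is richer in forms with 2 N-terminal inserts, each encoded by an exon of 87 bases, at chr11:104287123-104287209 and chr11:104289908-104289994. A 54-base exon at chr11:104307881-104307934 separates the 2 forms of Mapt without those inserts. All 3 are coding exons on the plus strand.
Mapt N-terminal exon 1: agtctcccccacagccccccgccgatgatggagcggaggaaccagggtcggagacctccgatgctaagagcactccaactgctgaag
Mapt N-terminal exon 2: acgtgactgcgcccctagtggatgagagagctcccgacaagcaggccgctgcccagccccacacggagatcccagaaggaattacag
Mapt 54-base exon: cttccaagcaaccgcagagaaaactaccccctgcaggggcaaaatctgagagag
In Map2 the juvenile (low molecular weight) form joins 2 exons across the very long exon that gives the adult (high molecular weight) protein its projecting arm. Both junctions start from the same coding exon, chr1:66401444-66401521 on the plus strand, and capitals mark the first 15 bases of the exon that follows.
Map2 high molecular weight junction: ccacagtggaggaagATTTACTTACAGCCT
Map2 low molecular weight junction: ccacagtggaggaagCAGCAAGTGGTGACT

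Mapt had the highest mean level of the 8 genes. Levels are in TPM (a transcript abundance that is corrected for length and has the same total in every library), with n = 2 pups throughout, and reads are estimated reads. Tau stood at 745 TPM (61625 reads) in pup 1 against 553 TPM (36894 reads) in pup 3, a mean of 649 ± 136 (SD). The axonal growth MAP Map1b reached 863 TPM (269187 reads) in pup 1 against 259 TPM (70491 reads) in pup 3, a mean of 561 ± 427. Pup 1 was thus the higher for both, and the order of Mapt and Map1b differed between the pups. The dendritic MAP Map2 stood at 227 and 134 TPM (181 ± 65.5). The broadly expressed MAP Map4 stood at 142 and 148 TPM (145 ± 3.92), the closest match between the pups among the 8.

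The doublecortin genes and the last 2 MAPs lay lower. Dcx stood at 87.03 TPM in pup 1 against 115 TPM in pup 3 (101 ± 19.9). Dclk1 stood at 103 and 39.9 TPM (71.7 ± 45.0). Dcx was therefore the lower of this pair in pup 1 and the higher in pup 3. Map1a, the MAP1 form known from mature neurons, stood at 16.8 and 36.9 TPM (26.9 ± 14.2). Map6 stood at 26.7 TPM (2018 reads) in pup 1 against 0.52 TPM (58 reads) in pup 3 (13.6 ± 18.5), so it was under 1 TPM, the level at which a gene is called found here, in pup 3 only. The plot of levels by pup shows the 8 genes in this order.

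**Figure D1:**
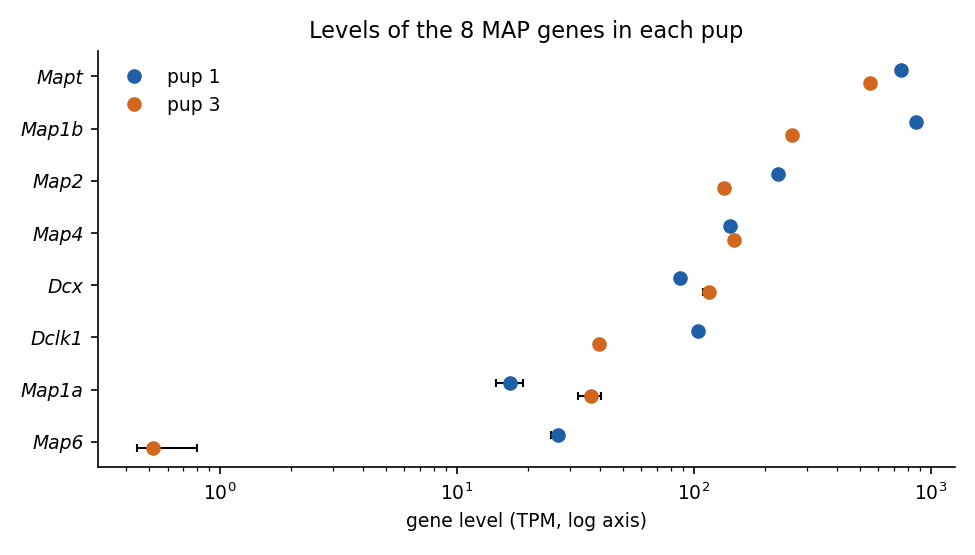
Level of each of the 8 genes (TPM, log axis) in pup 1 (blue) and pup 3 (orange). Points are the deposited TPM, black bars run between the deposited credibility bounds, which centre on the posterior mean TPM and are hidden by the points for most genes, and genes are ordered by their mean. Map4 differs least between the pups (142 and 148 TPM) and Map6 most (26.7 and 0.52 TPM).

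Neighbours in this order were often not separated by the pups. The values of the 2 pups interleaved for Mapt and Map1b, for Map2 and Map4, for Dcx and Dclk1, and for Map1a and Map6. They did not for Map1b over Map2 (lowest 259 against highest 227 TPM), Map4 over Dcx (142 against 115 TPM) and Dclk1 over Map1a (39.9 against 36.9 TPM). Among protein-coding genes Mapt ranked 142 in pup 1 and 246 in pup 3, and Map1b ranked 115 and 607. Map6 ranked 4574 and 6362. The 8 genes together held 2211 TPM in pup 1 against 1286 TPM in pup 3. They took 1.02% of reads in pup 1 and 0.548% in pup 3, more than their 0.221% and 0.129% of TPM.

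Of the 8 genes, 7 were found at 1 TPM or more in both pups, Map6 being the exception. The same held for 54.9% of the 9657 protein-coding genes with a mean of 1 TPM or more. In the ratio of pup 3 to pup 1, taken on log2(TPM + 1), 4 of the 8 genes passed 2-fold, beside 71.4% of those 9657 genes. Map1b (log2 -1.73), Dclk1 (log2 -1.35) and Map6 (log2 -4.19) were higher in pup 1, beside 48.3% of all such genes. Map1a (log2 1.09) was higher in pup 3, beside 23.1%. Map1a came under 2-fold with scaling by TMM factors (log2 0.97), by DESeq2 size factors (log2 0.99) and with a pseudocount of 10 (log2 0.81). Mapt (log2 -0.43), Map2 (log2 -0.75), Map4 (log2 0.05) and Dcx (log2 0.40) stayed within 2-fold. The sign for Map4 depended on the scaling, with log2 -0.23 on reads scaled with TMM factors. The median ratio of the 8 genes was log2 -0.59 and that of all such genes log2 -0.82. The scatter of ratio against level places the 8 among these genes.

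**Figure D2:**
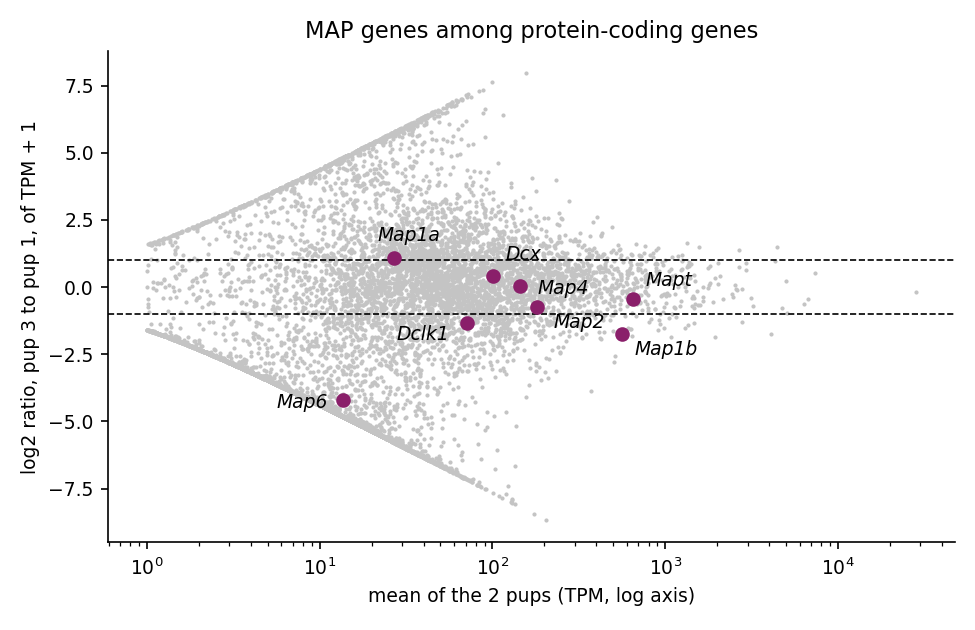
Log2 ratio of pup 3 to pup 1 on TPM + 1 against the mean level of the 2 pups (TPM, log axis) for 9657 protein-coding genes (grey) and the 8 MAP genes (purple, named). Dashed lines mark 2-fold, and Map1b, Dclk1 and Map6 lie under the lower line, Map1a over the upper one.

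For all 8 genes the deposited credibility bounds of the 2 pups did not overlap, as for 95% of the 9657 genes. The closest were those of Map4, at 137 to 141.71 TPM in pup 1 and 141.93 to 147.06 TPM in pup 3. The bounds centre on the posterior mean and need not hold the TPM reported above. For Map4 in pup 1, that TPM (142.27) lay over its own upper bound and inside the bounds of pup 3. These bounds cover the error of counting and assigning reads only, since the reads carry no molecular identifiers. Depth was 41082811 estimated reads in pup 1 and 29881397 in pup 3. Spike-in RNA held 4.46% and 7.30% of TPM, and mitochondrial genes 5.02% and 6.003%. Protein-coding genes found at 1 TPM numbered 9048 and 6210.

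Tau was assigned mostly to models without the N-terminal inserts, called 0N. Mapt-204 (ENSMUSG00000018411, chr11:104231390-104332090, plus strand), which encodes 372 residues, stood at 349 TPM in pup 1 against 225 TPM in pup 3. It led in both pups, with 46.9% and 40.7% of the gene's TPM. Mapt-205, the same form with the 54-base exon (390 residues), stood at 236 and 155 TPM, or 31.7% and 28.0%. Mapt-201, which carries both N-terminal exons (2N, 430 residues), stood at 131 and 162 TPM, or 17.6% and 29.2%. So the 0N forms summed to 78.5% in pup 1 and 68.6% in pup 3 (73.6% ± 6.99), and 2N tau was the only coding class above 10% that was higher in pup 3. The lengths of the 3 models differ, at 5253 bases for Mapt-204, 1527 for Mapt-205 and 1362 for Mapt-201. In reads, 0N forms therefore held 92.0% and 86.7%. Coding bases make 1116 of the 5253 in Mapt-204 but 1290 of the 1362 in Mapt-201. Reads from long noncoding ends of a 2N RNA would thus mostly go to the 0N model Mapt-204. So the 0N share is not set by the N-terminal exons alone and may be too high. Mapt-203, the longest form, which adds the large exon of peripheral tau (749 residues), had 0 reads in both pups, as had its shorter relative Mapt-202.

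The juvenile form of tau, with 3 repeats, cannot be read from these tables, since 0 of the 12 listed Mapt transcripts model it. Its reads could only be assigned to the adult or to partial models, and the 0N and 2N shares above do not separate RNAs by their number of repeats. Likewise, no complete listed Mapt model carries a single N-terminal exon. Reads of such a form could only be assigned to the 0N, 2N or partial models, so its level cannot be read either.

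Map2 was mostly in its juvenile form. The low molecular weight transcripts of Map2 (ENSMUSG00000015222, chr1:66175273-66442583, plus strand), about 467 residues, summed to 143 TPM in pup 1 against 109 TPM in pup 3. That was 63.0% and 81.3% of the gene (72.1% ± 13.0). Map2-201 led in both pups at 108 and 69.5 TPM (47.5% and 51.8%), and Map2-202 followed at 24.5 and 39.4 TPM (10.8% and 29.4%). The adult high molecular weight form, Map2-204 (1828 residues), stood at 22.5 TPM (3682 reads) in pup 1 against 0.10 TPM (13.9 reads) in pup 3. With partial models inside its long exon, high molecular weight Map2 came to 34.9 and 2.61 TPM, 15.4% and 1.95%. Low molecular weight Map2 thus exceeded the high form in both libraries, and the high form was nearly all in pup 1. The full low molecular weight models with the extra repeat exon shown above stood at 0.06 and 0.23 TPM. The partial model Map2-221, which also holds that exon, had 0 reads in pup 1 and stood at 2.51 TPM (60.7 reads) in pup 3. It covers 37 bases of the long exon and is counted above with the high molecular weight sum. Map2-218, a partial model of 546 bases, stood at 29.1 and 3.80 TPM (12.8% and 2.83%), and it rested on 345 and 39.3 reads.

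**Figure D3:**
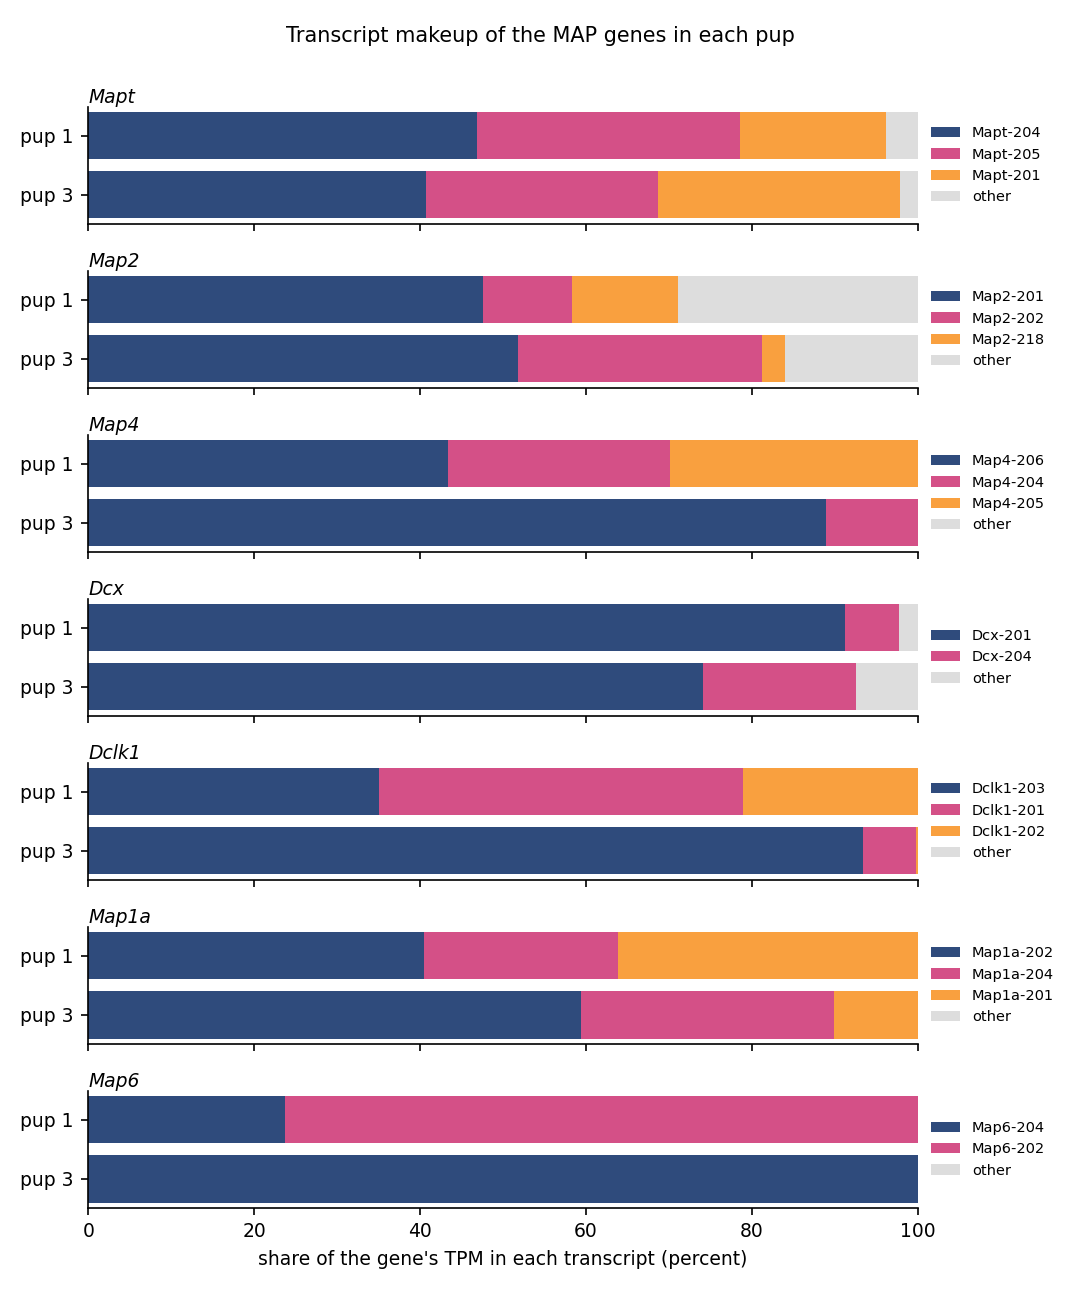
Share of each gene's TPM (percent) in each transcript, for pup 1 (upper bar) and pup 3 (lower bar), for the 7 genes with more than 1 listed transcript. Transcripts at 10% or more in either pup are coloured and named, the rest are grey, and the leading transcript is another one in pup 3 for Dclk1 and Map6.

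Map4 showed nearly equal gene levels in TPM but unequal forms. Map4 (ENSMUSG00000032479, chr9:109931460-110083955, plus strand) is listed with a short form, Map4-206, that encodes 99 residues of the N-terminal part without any repeat. Map4-206 stood at 61.6 TPM in pup 1 against 131 TPM in pup 3, or 43.3% and 88.9%. Map4-205, which has N-terminal and repeat parts (1124 residues), stood at 42.5 TPM (6617 reads) in pup 1 but had 0 reads in pup 3. The deposited upper bound for Map4-205 in pup 3 was 0.0260 TPM. Map4-204, with the repeats but another start (933 residues), stood at 38.2 and 16.5 TPM, or 26.8% and 11.1%. Forms with the repeats thus summed to 80.6 TPM in pup 1 and 16.5 in pup 3, 56.7% and 11.1% of the gene. Map4-201, the longest form, had 0 reads in both pups. A further model, Map4-203, is listed under another gene identifier and had 309 reads in pup 1 and 0 in pup 3, outside these sums.

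Map1b outweighed Map1a in both pups, by 51.3 times in pup 1 and 7.01 times in pup 3 in TPM. Map1b (ENSMUSG00000052727, chr13:99421446-99516540, minus strand), the MAP1 form of growing axons, has 1 listed transcript (2464 residues), so nothing can be said of its forms. Its 3.33-fold difference was the only one past 2-fold among the 4 genes of highest mean level. Neuron markers were mixed. The 7 markers (Rbfox3, Tubb3, Stmn2, Snap25, Syt1, Elavl3 and Elavl4) summed to 8772 TPM in pup 1 against 4112 TPM in pup 3. Of the 7, 6 were found in both, beside 54.9% of protein-coding genes with a mean of 1 TPM or more. Tubb3 made most of that difference (6275 and 1872 TPM), Snap25 lay at 433 and 121 TPM, Stmn2 at 1786 and 1738 TPM, and Rbfox3 had 0 reads in pup 3. Elavl4 (113 and 191 TPM), Syt1 (85.5 and 116 TPM) and Elavl3 (66.1 and 72.6 TPM) were higher in pup 3, and the median over the 7 was log2 -0.04. In bulk RNA, fewer neurons and less of the RNA per neuron cannot be told apart, and the part of either in the Map1b difference was not tested.

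Map1a (ENSMUSG00000027254, chr2:121289600-121310832, plus strand) was low but led by full coding forms. Map1a-202 (2776 residues) stood at 6.81 TPM in pup 1 against 21.9 TPM in pup 3, or 40.5% and 59.4%. Map1a-201, the longest form (3014 residues), stood at 6.07 and 3.76 TPM, or 36.1% and 10.2%. The 2 coding forms thus lay near each other in pup 1 and apart in pup 3. Map1a-204, a noncoding model of 411 bases, held 23.4% and 30.4% of TPM on only 32.6 and 81.3 reads. Coding forms alone gave 12.9 TPM in pup 1 against 25.7 TPM in pup 3. Map1a shares 272 exon bases with the antisense gene Ppip5k1 (27.7 TPM in pup 1 against 0.15 TPM in pup 3). The strand setting of the counting is not given in the sources used here, so reads of that stretch are uncertain.

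Dcx was close to even between the pups in its main form. Dcx (ENSMUSG00000031285, chrX:143855842-143933311, minus strand) encodes doublecortin, whose loss in people causes lissencephaly. Its coding forms differ by small optional blocks at exon edges, of 15 and 3 bases, shown here in capitals with 12 coding bases on each side. The blocks lie at chrX:143875755-143875769 and chrX:143870607-143870609, and the sequences are those of the minus strand.
Dcx 15-base block: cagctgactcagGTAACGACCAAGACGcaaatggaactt
Dcx 3-base block: cggaagcacaagGTAgacctgtacctg
Dcx-201, which has both blocks (366 residues), stood at 79.3 TPM in pup 1 against 85.3 TPM in pup 3, a ratio of 1.07. It held 91.2% and 74.0% of the gene's TPM. Dcx-204, without them (360 residues), stood at 5.67 TPM (186 reads) and 21.2 TPM (607 reads), or 6.51% and 18.4%. Dcx-202, the longest form together with Dcx-201 at 366 residues, stood at 1.79 and 8.56 TPM. All models of 366 residues came to 93.2% of the gene's TPM in pup 1 and 81.5% in pup 3. Dcx-204 is the only listed model of 360 residues and has short ends. Reads from longer ends of such an RNA would go to other models, so these shares do not rest on the blocks alone. The higher gene level of Dcx in pup 3 lay mainly in the shorter models Dcx-204 and Dcx-202, of 1333 and 3120 bases beside 9074 for Dcx-201.

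Dclk1 lay far apart between the pups in its kinase forms and close together in its doublecortin-only form. Dclk1 (ENSMUSG00000027797, chr3:55242364-55539068, plus strand) makes a full protein with doublecortin and kinase parts, a doublecortin-only protein known from the embryonic brain and a kinase-only protein known from the adult brain. The doublecortin-only form ends in the coding exon at chr3:55466573-55466626, which sets it apart from the other 2.
Dclk1-203 last coding exon: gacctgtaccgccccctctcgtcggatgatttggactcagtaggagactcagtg
Dclk1-203, doublecortin only (363 residues), stood at 36.2 TPM (5696 reads) in pup 1 against 37.3 TPM (5120 reads) in pup 3. Dclk1-201, the full form (756 residues), stood at 45.5 TPM (9353 reads) and 2.55 TPM (457 reads). Dclk1-202, kinase only (422 residues), stood at 21.8 TPM (3997 reads) and 0.08 TPM (12.6 reads). Kinase-bearing forms together were 25.6-fold higher in pup 1, at 67.3 against 2.63 TPM. The doublecortin-only form therefore made 35.0% of the gene in pup 1 and 93.4% in pup 3 (64.2% ± 41.3).

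**Figure D4:**
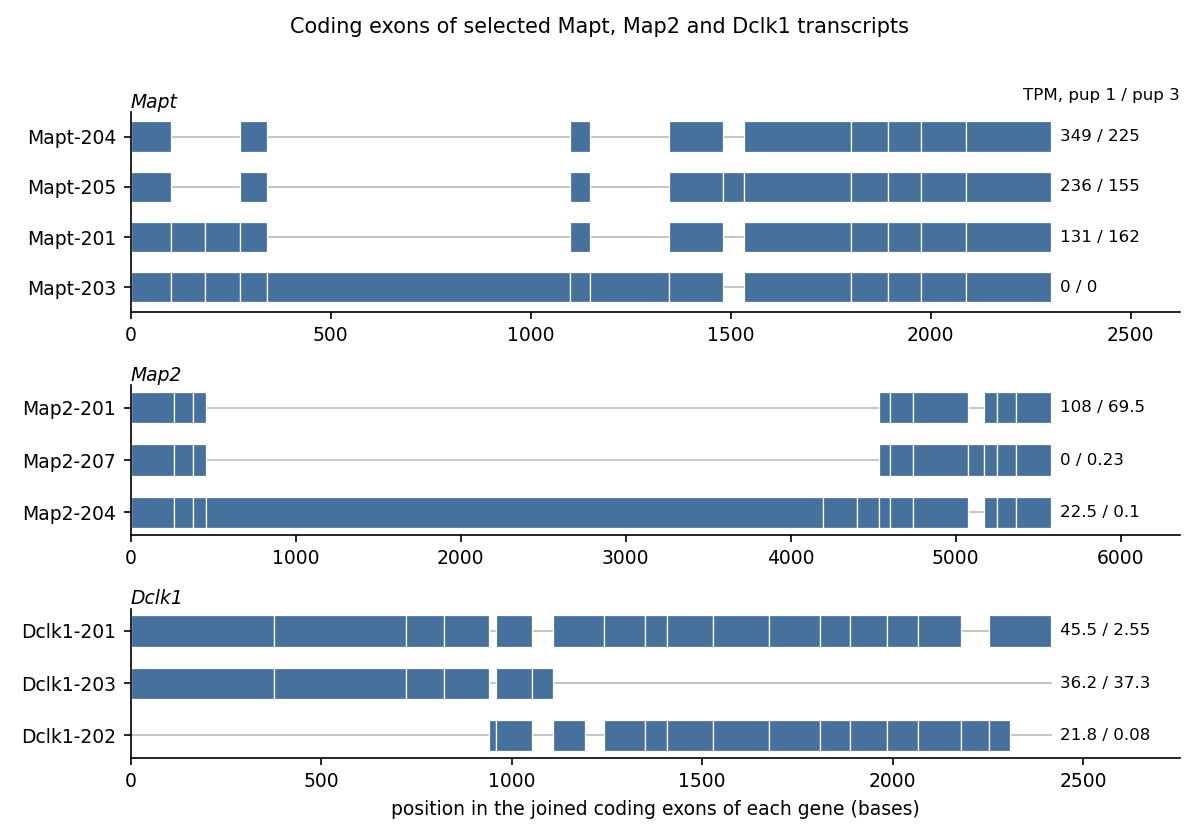
Coding exons of selected Mapt, Map2 and Dclk1 transcripts, drawn as blue boxes along the joined coding exons of each gene (bases), with the TPM of pup 1 and pup 3 at the right. Grey lines are coding stretches that a transcript lacks, and the long box of Map2-204 and the kinase exons of Dclk1-201 and Dclk1-202 go with low values in pup 3 (0.10, 2.55 and 0.08 TPM).

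Map6 was the least sampled of the 8. Map6 (ENSMUSG00000055407, chr7:99267447-99337137, plus strand), also called STOP, stabilises microtubules against cold. Map6-202 (306 residues) stood at 20.4 TPM (1210 reads) in pup 1 but had 0 reads in pup 3, where its deposited upper bound was 0.0561 TPM. Map6-204 (568 residues) stood at 6.32 TPM (808 reads) and 0.52 TPM (58 reads). Map6-201, the longest form (906 residues), known from neurons, had 0 reads in both pups. All reads of the gene in pup 3 were thus assigned to 1 model.

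Across the 59 listed transcripts, 29 were at 1 TPM or more in pup 1, 26 in pup 3 and 20 in both, and 16 had 0 reads in both. The change in makeup between the pups is given as the share of a gene's TPM that sits in other transcripts in pup 3. It was 11.995 points for Mapt, 17.4 for Dcx, 25.9 for Map1a, 38.8 for Map2, 45.5 for Map4, 58.4 for Dclk1 and 76.4 for Map6. Over 3141 protein-coding genes with several transcripts and at least 10 TPM in both pups, the median was 23.8 points and the quartiles 3.52 and 55.6. The shifts of Mapt, Dcx, Map1a, Map2 and Map4 lie between those quartiles. Of the 6 MAP genes in that background, Dclk1 alone had another leading transcript in pup 3, beside 33.9% of the 3141. Map6, outside it, also changed its leading transcript.

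The proteins that work with MAPs were listed in 5 groups of 49 genes in all, of which 27 were found in both pups, 11 in pup 1 only, 4 in pup 3 only and 7 in neither. Of the 41 with a mean of 1 TPM or more, 19 were past 2-fold higher in pup 1 and 9 in pup 3, beside 48.3% and 23.1% of all such genes. Their median was log2 -0.72 beside log2 -0.82. The 27 found in both are among these 41, beside 54.9% of all genes at that mean. Among 15 kinases and phosphatases that act on MAPs, 12 had such a mean, and 10 of these were found in both. The phosphatase subunit Ppp2r2b stood at 265 and 198 TPM, the tau kinase Cdk5 at 100.3 and 92.3 TPM, and the tau kinase Gsk3b at 134 and 46.7 TPM. Among 9 plus-end and lattice proteins, 8 had such a mean, and 7 of these were found in both. They were led by the end-binding proteins Mapre1 (365 and 274 TPM) and Mapre2 (295 and 90.3 TPM) and by the polymerase Ckap5 (62.2 and 85.2 TPM). The 5 genes listed as lissencephaly partners all had such a mean, and 4 were found in both. The highest means were those of Pafah1b3 (308 and 603 TPM), Pafah1b2 (156 and 154 TPM) and the dynein regulator Ndel1 (43.7 and 92.6 TPM). The other 2, Pafah1b1 (46.02 and 2.6 TPM) and Nde1 (21.6 and 0.03 TPM), were past 2-fold higher in pup 1, beside 48.3% of all such genes. Ndel1 was past 2-fold higher in pup 3, beside 23.1%.

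The other 2 groups held fewer genes found in both. Of 12 further structural MAPs, 9 had a mean of 1 TPM or more, and 3 of these were found in both, beside 54.9% of such protein-coding genes. The 3 were the autophagy-linked light chain proteins Map1lc3b (632 and 384 TPM) and Map1lc3a (174 and 355 TPM), and Map9 (158 and 246 TPM). Of 8 minus-end and severing proteins, 7 had such a mean, and 3 of these were found in both. Among them were the minus-end protein Camsap2 (34.1 and 10.7 TPM) and the severing protein Fign (4.85 and 38.7 TPM). Fign rested on 1240 reads in pup 1 and 494 in pup 3, so its reads and its TPM differed in opposite directions.

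Markers of other forebrain cells were present beside those of neurons. Radial glia markers summed to 1959 TPM in pup 1 against 2551 in pup 3 (4 of 6 found in both). Fabp7 (1337 and 2290 TPM) carried that direction. Of the 6, 4 were past 2-fold higher in pup 1, among them Vim (379 and 173 TPM) and Slc1a3 (228 and 83.1 TPM). The same held for 48.3% of protein-coding genes with a mean of 1 TPM or more. The median of the 6 was log2 -1.29, beside log2 -0.82 for all such genes. Astrocyte markers summed to 170.1 and 172 TPM (4 of 4 found in both). Oligodendrocyte lineage markers summed to 67.5 and 61.1 TPM (1 of 6 found in both), microglia markers to 215 and 64.4 TPM (1 of 4), endothelial markers to 42.6 and 82.2 TPM (1 of 3) and erythroid markers to 837 and 1581 TPM (3 of 3). Of protein-coding genes with a mean of 1 TPM or more, 54.9% were found in both, and some of these markers lie under that mean. Map4, which is made by many cell types, lay at nearly the same TPM in both libraries. The part of any of these cell types in the MAP levels was not tested.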

How the data were processed

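A gene table and a transcript table per library were used as deposited. The deposited expected counts are estimated reads, the deposited TPM and FPKM are scaled by effective length, and the deposited percent is a transcript's share of its gene's TPM, per the file headers. Spike-ins and mitochondrial genes count in the TPM total. Deposited text names assembly mm10 and annotation M4. Not given in the sources used here are the aligner, the counter, the strand setting and the level of the credibility bounds.

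Symbols, exons and sequences came from GENCODE M21 on the same assembly. Of 59 member transcripts 58 matched, 6 of them with another length, among them all 4 listed under Map4. Classes of transcripts were set from coding exons and their TPM summed. Log2 ratios use a pseudocount of 1, which understates changes of low genes, and 2-fold was the call. All 8 members were named, with transcripts at 10% or more of their gene, each longest coding form and the 3 highest genes of each companion list. Map4-203, Mapt-202, Map2-203, Map2-221, Dcx-202, Pafah1b1, Nde1, the cell type markers and Ppip5k1 were named after their values were seen. A gene that this rule takes and a sequence are not reported here. The members and lists were chosen with earlier results of these data known. Alternatives used posterior means, FPKM, rescaling, edgeR 4.0.16 TMM factors and DESeq2 1.42.0 size factors on rounded counts (R 4.3.3), other pseudocounts and each pup alone. Tables were made with Python 3.11.15 and pandas 2.3.3. Only a log2 ratio calculation of the same form was tested on simulated counts, with counting noise alone. The isoform, class and list steps were not.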

Additional observations from a re-analysis of the deposited data

How the results depend on the processing

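No paired analysis was possible because the 2 libraries form 1 group. No ratio past 2-fold changed direction under any alternative run. On reads not scaled by length, the share of 0N forms in Mapt moved from 73.6% to 89.4%, and that of low molecular weight forms in Map2 from 72.1% to 86.6%. The number of MAP genes past 2-fold was 4 of 8, beside 71.4% of the 9657 protein-coding genes. It was 3 without Map1a under both size-factor scalings, beside 71.7%, and with a pseudocount of 10, beside 52.7%. At a mean of 10 TPM or more, where all 8 lie, 63.8% of 6992 protein-coding genes were past 2-fold. The median ratio of all protein-coding genes was log2 -0.82, and moved to -0.56 with FPKM and to -0.46 with a pseudocount of 10. Each pup alone gave 68.6% to 78.5% for 0N Mapt, 63.0% to 81.3% for low molecular weight Map2, 35.0% to 93.4% for doublecortin-only Dclk1 and 11.1% to 56.7% for Map4 with repeats. Leaving out models under 1000 bases, an alternative chosen after seeing the data, gave 81.9% for low molecular weight Map2. With 2 libraries, a single one always lies within 1 SD of their mean, so these ranges say nothing of stability. A form with 0 reads has a deposited upper bound, such as 0.105 TPM in pup 1 and 0.103 TPM in pup 3 for Mapt-202. For Map2-203 it was 7.58 TPM in pup 3. Such bounds cover the error of counting and assigning reads only, so they set no ceiling on the level in the RNA itself.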
